A study of Mus musculus with 9 samples.

Results

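The receptors of the SLAM family (signalling lymphocytic activation molecule) were followed with their adaptor Sh2d1a in spleen RNA of female BALB/c mice, measured on 9 Agilent 1-colour arrays. The set was every non-control probe whose accession maps to Slamf1, Slamf6, Slamf7, Slamf8, Slamf9, Cd48, Cd84, Cd244 (also called Cd244a), Ly9 or Sh2d1a. That gave 14 probes for 10 genes, of 39429 probes and 32451 genes or accessions in all. Slamf6, Cd48, Cd84 and Ly9 had 2 probes each. All 14 probes were well above background on all 9 arrays, so none of them was left out by the filter on dim signals. The family was selected on the log2 differences between the groups measured on these same arrays, so the values and adjusted p-values below describe those differences and are not independent evidence for them.

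The samples formed 3 groups of 3. One group, low Se non-GD, had a low dietary selenium supply and no Graves' disease. Another, low Se GD, had the low supply and the disease, and the last, normal Se GD, had the disease on a normal supply. In Graves' disease antibodies switch on the thyrotropin receptor and so the thyroid, and the title names the role of selenium intake in it as the question. The labels give no age, no way in which the disease was brought about and no make-up of the diets. Healthy mice on normal selenium were not among the groups. Whether each sample is its own animal is not stated in the labels, so a p-value reflects the spread over these samples only, and that spread may be technical.

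SLAM receptors are immunoglobulin-like surface proteins of blood and immune cells. Most bind a copy of themselves on a neighbouring cell, while Cd244 binds Cd48. Tyrosine motifs in the tails of most members recruit the small adaptor SAP, the product of Sh2d1a, which brings in the kinase Fyn, or the related adaptor EAT-2, the product of Sh2d1b1, in natural killer and myeloid cells. Without an adaptor the same motifs can bind phosphatases. In spleen this system is known for the contact between T cells and B cells that germinal centres need and for the control of natural killer cell killing.

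In the RefSeq annotation of GRCm38.p6, 9 of the 10 genes lie on chromosome 1, and Sh2d1a lies on the X chromosome. Counted over protein-coding genes from Cd244 as place 1, Ly9 is at place 2, Slamf7 at 3, Cd48 at 4, Slamf1 at 6, Cd84 at 7 and Slamf6 at 8, while Slamf9 and Slamf8 stand apart at places 23 and 28. Promoter sequence was found for 8 of the 10 genes, all but Ly9 and Sh2d1a. The 250 bases before the annotated start are printed for the 3 genes that were called higher in normal Se GD than in low Se non-GD. They are RefSeq's, of build GRCm38.p6 and so of the strain C57BL/6J and not of BALB/c. Each reads 5′ to 3′ on the strand of the gene, with matches to the searched motifs in capitals.
Slamf1, chr1:171766882-171767131, plus strand: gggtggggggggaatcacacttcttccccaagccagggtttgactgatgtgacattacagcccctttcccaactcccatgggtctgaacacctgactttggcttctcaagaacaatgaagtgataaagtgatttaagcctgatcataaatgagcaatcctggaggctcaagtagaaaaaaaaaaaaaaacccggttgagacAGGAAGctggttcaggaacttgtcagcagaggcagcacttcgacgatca
Slamf7, chr1:171649000-171649249, minus strand: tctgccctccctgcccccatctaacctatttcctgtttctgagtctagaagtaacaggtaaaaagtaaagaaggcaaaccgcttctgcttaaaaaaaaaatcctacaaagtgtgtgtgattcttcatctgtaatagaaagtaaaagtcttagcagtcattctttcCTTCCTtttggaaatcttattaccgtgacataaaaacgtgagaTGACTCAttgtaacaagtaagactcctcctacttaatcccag
Slamf9, chr1:172475110-172475359, plus strand: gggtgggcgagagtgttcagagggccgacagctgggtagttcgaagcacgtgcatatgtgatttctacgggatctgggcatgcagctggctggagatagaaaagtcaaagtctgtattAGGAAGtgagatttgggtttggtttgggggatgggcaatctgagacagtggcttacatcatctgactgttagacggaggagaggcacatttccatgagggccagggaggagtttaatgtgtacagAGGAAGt

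Short motifs were searched on both strands. AGGAAG, a core that ETS factors recognise, was in 3 of the 8 member promoters, those of Slamf1, Slamf7 and Slamf9. Of all 32851 promoters of this length 29.5% hold it. A link between this motif and the calls was not tested. TGANTCA, the AP-1 core, was in the promoters of Slamf7, Cd84 and Cd244 (6.75% of all promoters). TGTGGT, a RUNX core, was in those of Cd48 and Cd84 (14.0%). A core of the interferon-stimulated response element was in that of Slamf8 (2.98%), and an NF-kB core was in 0 of the 8 (1.21%). AGGAAG and TGANTCA do not overlap in the printed sequences. These matches describe letters and not binding.

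Levels are given as log2 of the processed signal minus the 75th percentile of the array, and a difference is between group means of these levels, so 1 unit is a doubling. ± is the SD over n = 3 arrays. Probes differ in how well they bind, so the level of one gene is not set against that of another. Tests are from limma, with all 9 arrays in 1 fit and p-values adjusted over 26325 genes (threshold 0.05), and every pair of the 3 comparisons shares a group. Because spleen was measured in bulk, fewer cells of a type and less RNA per cell cannot be told apart.

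Several features of the arrays moved with the groups. The share of spots well above background was 72.6% to 82.6% on 8 arrays, and normal Se GD replicate 3 had the lowest share, 58.4%. The whole low Se non-GD group shared slide 1 with replicate 1 of low Se GD. On slide 2 were replicates 2 and 3 of low Se GD beside replicates 1 and 2 of normal Se GD, whose replicate 3 had slide 3 to itself. Within slide 1 or with the slide as a block, low Se GD is set against low Se non-GD by its replicate 1 alone. In low Se non-GD replicate 3 fell between its 2 fellow arrays for 78.3% of genes, and in low Se GD replicate 2 did so for 69.0%. Calls of the SLAM genes and their partners are also given without these 2 arrays where that ended them. The control spot E1A a107 ran from 4.72 to 5.85 without disease and from 0.87 to 2.51 on the 6 arrays with disease, and the ribosomal RNA signal Rn28s1 from 0.45 to 0.83 and from 3.003 to 5.99. The part of these features in the results was not tested. B cell and T cell genes such as Ms4a1, Cd3e and Cd4 were well above background on all 9 arrays.

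The disease comparison at low selenium, low Se GD versus low Se non-GD, called 1 of the 10 genes, Ly9, which fell. Among all genes 24.9% were called (12.8% higher and 12.2% lower). The 3 arrays of low Se GD lay wholly below those of low Se non-GD for Slamf6, Cd244 and Ly9 and wholly above them for 0 genes, where 23.4% of all genes lay below and 29.5% above. The median difference of the 10 genes was -0.02, beside 0.08 for all genes. By single probes 2 of 14 were called, both lower, where 25.1% of all probes were called. At an unadjusted p under 0.05 there were 2 genes. With both in-between arrays left out 0 of the 10 were called, and 1.02% of all genes. Within slide 1, where low Se GD is 1 array assumed to vary like the others, it was 0 and 3.57%.

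The selenium comparison in diseased mice, normal Se GD against low Se GD, called Slamf7 alone, which rose. Only 1.27% of all genes were called here, 334 of them (0.976% higher and 0.292% lower). That number was 0 or 1 without any one of 8 arrays and 1076 without normal Se GD replicate 3, and it was 0 with both in-between arrays left out. Of the 10 genes 9 had a positive difference, with a median of 0.31 beside 0.00030 for all genes. Normal Se GD lay wholly above low Se GD for Slamf1, Slamf6, Slamf7, Slamf9 and Sh2d1a and wholly below it for Cd244, where 17.9% of all genes lay above and 11.4% below. Unadjusted, 4 genes had a p under 0.05. By single probes 2 of 14 were called, both higher (Slamf7 and 1 probe of Cd84), against 2.18% of all probes. Fitted with the slide as a block, 3 genes were called, all higher, namely Slamf7, Slamf9 and Cd84, and 6.51% of all genes.

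Normal Se GD and low Se non-GD differ in both disease and selenium supply, and 4 genes were called between them. Slamf1, Slamf7 and Slamf9 rose and Ly9 fell, where 32.3% of all genes were called (18.9% higher and 13.4% lower). Normal Se GD lay wholly above low Se non-GD for Slamf1, Slamf7, Slamf8 and Slamf9 and wholly below it for Cd244 and Ly9, beside 28.0% of all genes above and 21.1% below. The median difference was 0.24, beside 0.06 for all genes. By single probes 3 of 14 were called higher and 1 lower, against 33.5% of all probes. With the slide as a block 2 genes were called, Slamf7 and Cd84, and 18.3% of all genes, and no slide held both groups. Without both in-between arrays 2 genes were called, Slamf7 and Slamf9, and 11.6% of all genes.

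**Figure D1:**
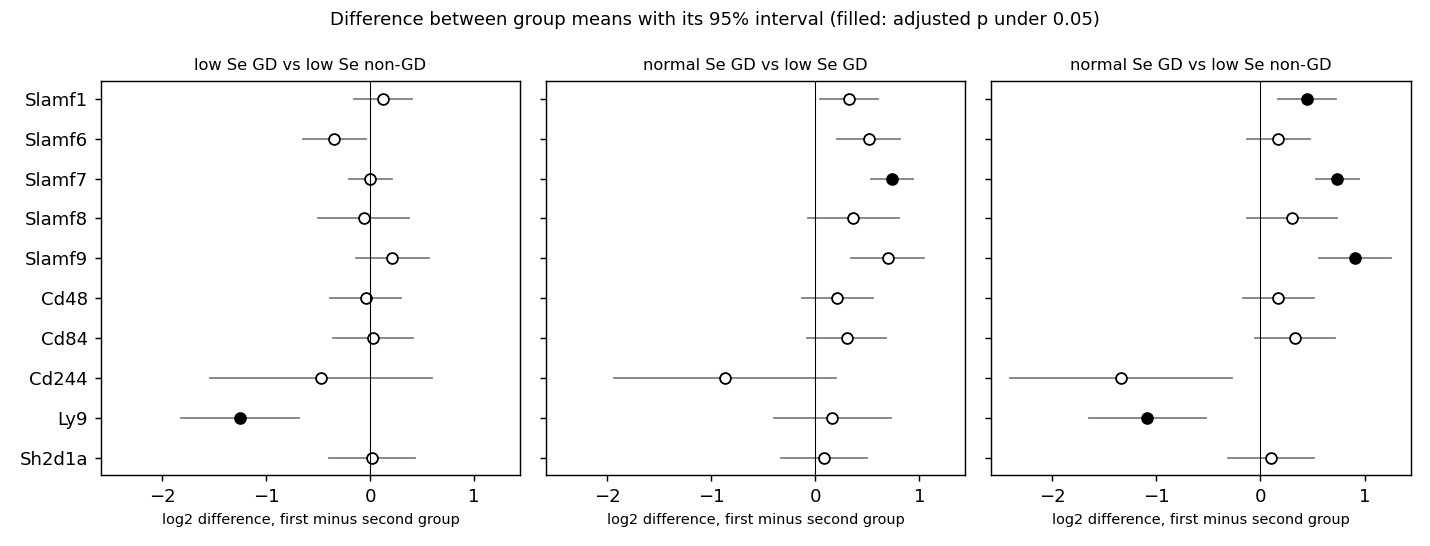
Differences between group means of the log2 level (x axis) for the 10 SLAM family genes (y axis) in the 3 comparisons, with 95% intervals from limma; filled points have an adjusted p under 0.05. Ly9 is filled on the left of 0 in the first and the last panel, Slamf7 on the right of 0 in the middle and the last panel, and the interval of Cd244 is the widest in each.

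Slamf7 (CRACC, CD319), a receptor that activates natural killer cells through EAT-2 and is abundant on plasma cells, had the smallest adjusted p of the family in both comparisons of normal Se GD. Its probe A_55_P2012989 gave -2.01, -2.03 and -2.05 in low Se non-GD, -2.09, -1.98 and -2.01 in low Se GD, and -1.38, -1.30 and -1.20 in normal Se GD. All 3 arrays on normal selenium lay above the 6 on low selenium, and the 2 low selenium groups overlapped. Normal Se GD exceeded low Se GD by 0.74 (SE 0.09, limma adjusted p = 0.0369), or 1.67-fold, and low Se non-GD by 0.74 (SE 0.09, adjusted p = 0.00127). The difference between the 2 low selenium groups was 0.0028, with a 95% interval from -0.20 to 0.21. Within slide 2 the rise over low Se GD was 0.66 (adjusted p = 0.0358). That call is close to the threshold: it was lost in 16 of 22 alternatives, with differences from 0.64 to 0.78 and adjusted p from 0.0122 to 0.512, while the rise over low Se non-GD stayed past it in all 21 alternatives run (0.50 to 0.79).

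Slamf9 and Slamf8 are members with short tails that lack the tyrosine motifs and are found on myeloid cells. Slamf9 (probe A_51_P246066) was at -1.29, -1.32 and -1.34 in low Se non-GD, at -1.41, -1.03 and -0.87 in low Se GD and at -0.46, -0.52 and -0.24 in normal Se GD. The normal selenium arrays were the 3 highest, and low Se GD straddled the narrow low Se non-GD range. Normal Se GD exceeded low Se non-GD by 0.91 (SE 0.15, limma adjusted p = 0.00362), or 1.88-fold, and low Se GD by 0.70 (SE 0.15, adjusted p = 0.0682). They became, with the slide as a block, 0.36 (adjusted p = 0.0877) and 0.46 (adjusted p = 0.0398).

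Slamf8 (probe A_51_P444290) was at -1.05, -0.86 and -0.92 in low Se non-GD, -1.42, -0.90 and -0.69 in low Se GD, and -0.57, -0.55 and -0.80 in normal Se GD. Low Se GD had the lowest array of all, its replicate 1 on slide 1, and overlapped both other groups. No comparison was called. The differences were -0.06 (95% interval -0.50 to 0.37) for disease at low selenium, 0.36 (-0.07 to 0.80) for selenium in disease and 0.30 (-0.13 to 0.74) for normal Se GD against low Se non-GD. A block for the slide made the first of these -0.48, as did the fit within slide 1. Both rest on replicate 1 of low Se GD alone.

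Slamf1 (CD150), which binds itself and marks T cells, B cells and blood stem cells, was read by probe A_52_P550173 at 0.18, 0.11 and 0.11 in low Se non-GD, 0.05, 0.29 and 0.43 in low Se GD, and 0.64, 0.45 and 0.65 in normal Se GD. The normal selenium arrays were again the 3 highest, the lowest of them just above the highest of low Se GD. The rise over low Se non-GD was 0.45 (SE 0.12, limma adjusted p = 0.0241), or 1.36-fold, and the difference from low Se GD was 0.32 (SE 0.12, adjusted p = 0.195). A block for the slide made the former 0.10 (adjusted p = 0.643). The call was also lost without both in-between arrays, without low Se non-GD replicate 2 or replicate 3, without normal Se GD replicate 1 and with median scaling, at adjusted p between 0.0664 and 0.156.

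Slamf6 (Ly108), a receptor of T and B cells that signals through SAP, had 2 probes. A_55_P2182467, which stood for the gene, gave 1.28, 1.72 and 1.49 in low Se non-GD, 1.25, 1.18 and 1.02 in low Se GD, and 1.58, 1.72 and 1.69 in normal Se GD. Low Se GD held the 3 lowest arrays. Its difference from low Se non-GD was -0.35 (limma adjusted p = 0.0921), and normal Se GD stood 0.52 above it (adjusted p = 0.0902), neither of which passed. The other probe, A_52_P507578, gave 0.01, 0.18 and 0.11, then 0.18, 0.15 and -0.04, then 0.44, 0.52 and 0.27 in the same order of groups. Here the normal selenium arrays were the 3 highest and the 2 low selenium groups overlapped, with a difference of -0.0013 between them, 0.31 for selenium in disease (adjusted p = 0.159 over all probes) and 0.31 for normal Se GD against low Se non-GD (adjusted p = 0.0627).

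**Figure D2:**
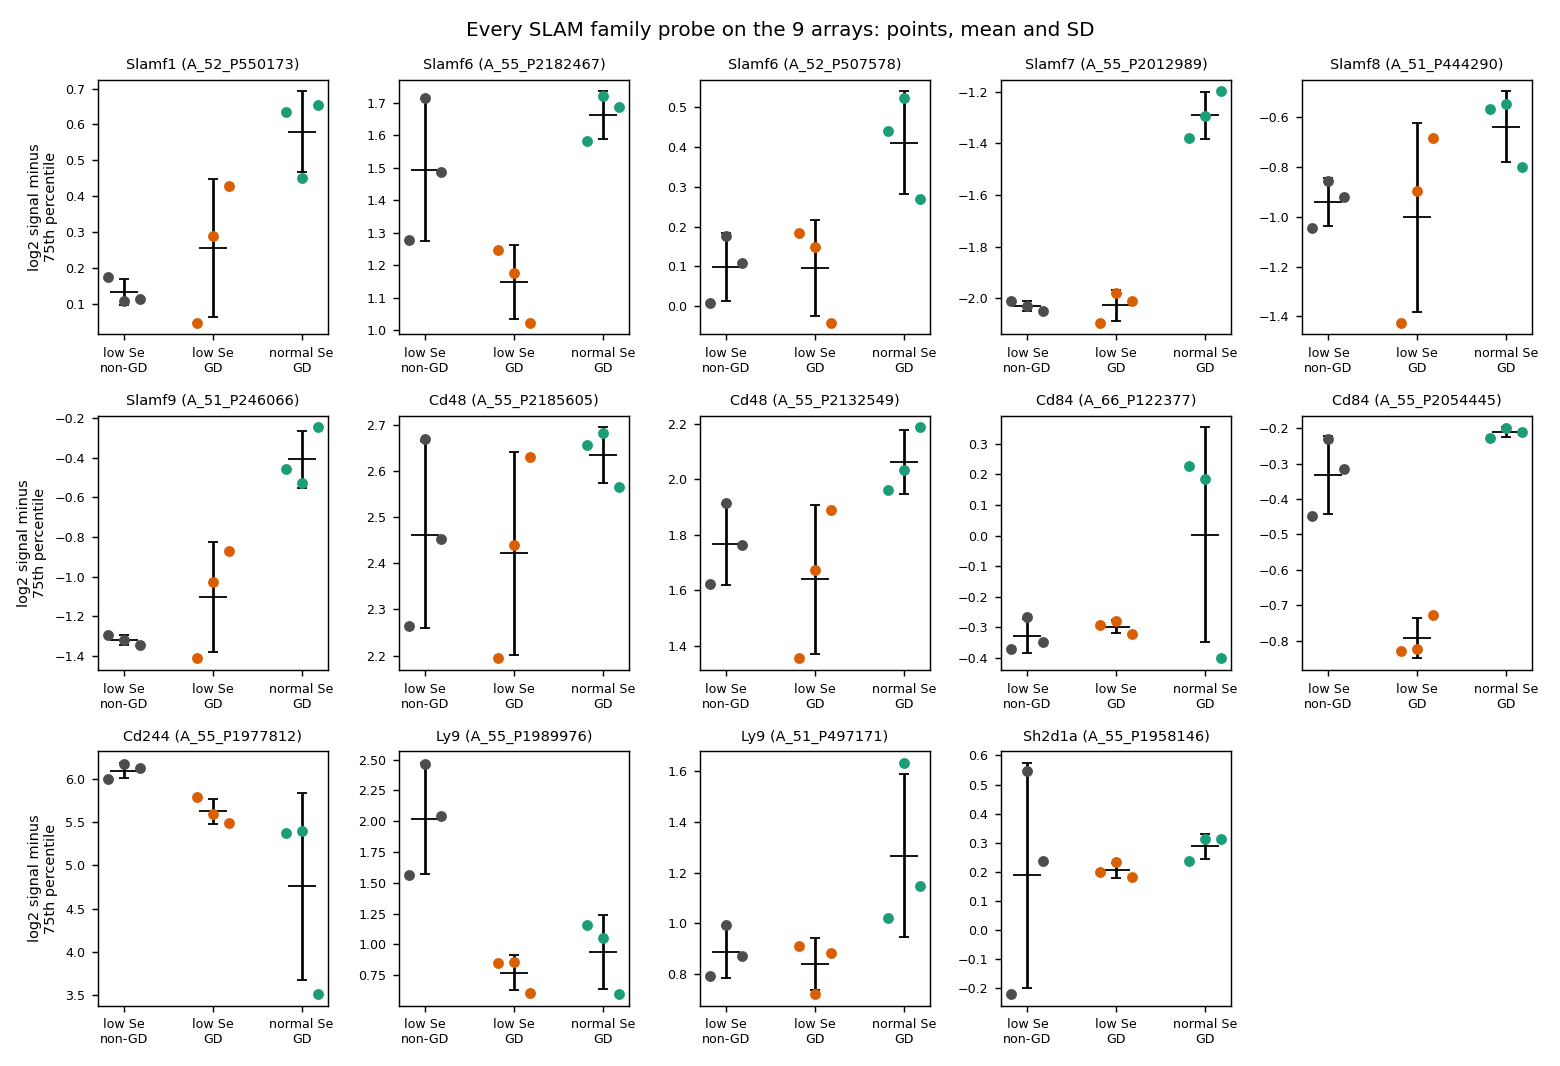
Level of each of the 14 probes (y axis, log2 signal minus the 75th percentile of the array) on the 9 arrays, with the mean and SD of each group of 3; each panel has its own scale. Slamf7 and Slamf9 show all 3 normal Se GD arrays above the 6 others, and the 2 probes of Ly9 show different orders of the groups.

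Ly9 (CD229), a receptor of T and B cells that binds itself, gave the only call in the disease comparison, and its 2 probes differed. A_55_P1989976, which stood for the gene, read 1.56, 2.46 and 2.04 in low Se non-GD, 0.85, 0.86 and 0.60 in low Se GD, and 1.16, 1.05 and 0.59 in normal Se GD. All 3 arrays without disease lay above the 6 with it, and the 2 diseased groups overlapped. The fall in low Se GD was -1.25 (SE 0.24, limma adjusted p = 0.00905), or 2.38-fold, and that in normal Se GD was -1.09 (SE 0.24, adjusted p = 0.0121), or 2.12-fold. Selenium supply in disease gave 0.16 (95% interval -0.40 to 0.73).

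Probe A_51_P497171 of Ly9 read 0.79, 0.995 and 0.87 in low Se non-GD, 0.91, 0.72 and 0.88 in low Se GD, and 1.02, 1.63 and 1.15 in normal Se GD. Its low selenium groups overlapped, and normal Se GD was the highest. The differences were -0.05 for disease at low selenium (adjusted p = 0.864 over all probes), 0.43 for selenium in disease (0.189) and 0.38 for normal Se GD against low Se non-GD (0.113). Within an array, the first probe exceeded the second by 1.14 ± 0.35 without disease, by -0.07 ± 0.21 with disease on low selenium and by -0.33 ± 0.41 with disease on normal selenium, so the 2 did not change alike. With the mean of both probes the fall in normal Se GD was -0.35 (adjusted p = 0.153) and that in low Se GD -0.65 (adjusted p = 0.0282).

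The Ly9 fall in low Se GD was -1.17 both with the slide as a block and within slide 1. These are 1 estimate, which rests on replicate 1 of low Se GD alone. Without both in-between arrays it was -1.29 (adjusted p = 0.112), and the fall in normal Se GD was then -1.08 (adjusted p = 0.0828). The latter was, with the slide as a block, -0.80 (adjusted p = 0.237). The E1A and Rn28s1 signals given above separate the same groups as this probe, and their part in its fall was not tested.

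Cd84, a self-binding receptor of B cells, T cells and platelets, also had 2 probes that differed. A_66_P122377, which stood for the gene, gave -0.37, -0.26 and -0.35 in low Se non-GD, -0.29, -0.28 and -0.32 in low Se GD, and 0.23, 0.18 and -0.40 in normal Se GD. In the last group replicate 3 lay below every other array, while the other two lay above all of them. No comparison was called for the gene (differences 0.03, 0.30 and 0.33). Without normal Se GD replicate 3 selenium in disease gave 0.50 (limma adjusted p = 0.0245) and normal Se GD against low Se non-GD 0.53 (adjusted p = 0.00186).

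A_55_P2054445 of Cd84 gave -0.45, -0.23 and -0.32 in low Se non-GD, -0.83, -0.82 and -0.73 in low Se GD, and -0.23, -0.20 and -0.21 in normal Se GD. Low Se GD held the 3 lowest arrays with a clear gap, and normal Se GD lay just above low Se non-GD. This probe fell in low Se GD by 0.46 on the log2 scale (SE 0.09, limma adjusted p = 0.00940 over all probes) and was 0.58 higher in normal Se GD than in low Se GD (SE 0.09, adjusted p = 0.0365). Between normal Se GD and low Se non-GD it differed by 0.12 (adjusted p = 0.350). Neither call held without both in-between arrays (-0.44, adjusted p = 0.179, and 0.57, adjusted p = 0.430), and within slide 1 the fall was -0.50 (adjusted p = 0.113). The selenium call of this probe was also lost with normexp, quantile normalization, median scaling, the authors' deposited log2 table and no filter on dim probes, under which 0 of the 14 probes were called.

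Cd48, a lipid-anchored ligand carried by most leukocytes, and Cd244 (2B4), its receptor on natural killer cells and some T cells, did not share a pattern. Cd48 probe A_55_P2185605 gave 2.26, 2.67 and 2.45 in low Se non-GD, 2.19, 2.44 and 2.63 in low Se GD, and 2.66, 2.68 and 2.57 in normal Se GD. A_55_P2132549 gave 1.62, 1.91 and 1.76, then 1.35, 1.67 and 1.89, then 1.96, 2.03 and 2.19. By the former the groups overlapped in every comparison, and by the latter normal Se GD held the 3 highest arrays. Neither probe was called. The gene's differences, from the former, were -0.04 (95% interval -0.38 to 0.30) for disease at low selenium, 0.21 (-0.13 to 0.55) for selenium in disease and 0.17 (-0.17 to 0.51) for normal Se GD against low Se non-GD.

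Cd244 (probe A_55_P1977812) stood at 6.002, 6.17 and 6.13 in low Se non-GD, 5.79, 5.59 and 5.50 in low Se GD, and 5.37, 5.40 and 3.51 in normal Se GD. The 3 groups did not overlap and stepped down in that order, and replicate 3 of normal Se GD lay 1.88 below the mean of the other 2. No difference was called: it was -0.47 for disease at low selenium (limma adjusted p = 0.500), -0.87 for selenium in disease (adjusted p = 0.351) and -1.34 for normal Se GD against low Se non-GD (SE 0.46, adjusted p = 0.0585). Replicate 3 set much of the spread. Without it the disease difference was -0.47 (adjusted p = 0.00800), that of normal Se GD from low Se non-GD -0.71 (adjusted p = 0.00276), and that for selenium in disease -0.24 (adjusted p = 0.211). The array of replicate 3 was the one with 58.4% of spots well above background, and 215 of 13365 named genes above background on all arrays (1.61%) were as far below there as Cd244 was. The control spot E1A a107 was also highest in low Se non-GD (4.72 to 5.85) and lowest on that array (0.87), while its 2 diseased groups overlapped. Its part in the Cd244 levels was not tested. The difference of normal Se GD from low Se non-GD was called in 5 of 21 alternatives.

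Cd244 had the widest difference among the members, and the genes with the most similar profile over the 9 arrays were sought among those 13365, by root mean square difference after centring each gene on its own mean. They were Etfbkmt (0.02), Paxip1 (0.07), Cd300ld (0.10) and Zfp446 (0.10), against a median of 0.85 over all candidates. Each also had its lowest array at normal Se GD replicate 3, between 1.71 and 1.88 below the other two of its group. Etfbkmt encodes a mitochondrial methyltransferase, Paxip1 a protein of DNA damage signalling, Cd300ld a myeloid receptor and Zfp446 a zinc finger protein.

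**Figure D3:**
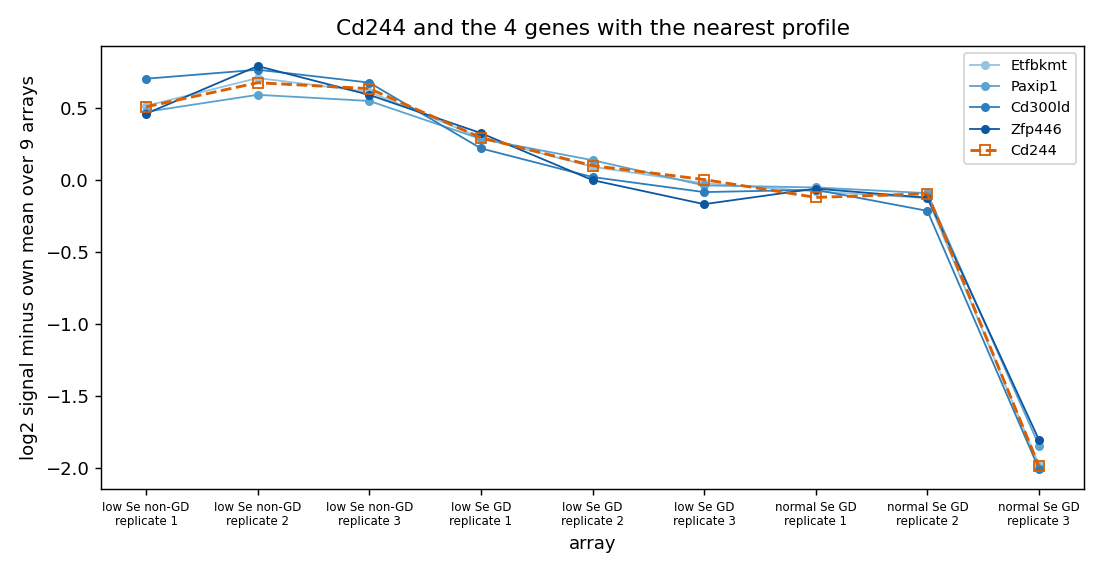
Log2 level minus the mean of each gene over the 9 arrays (y axis) by array (x axis) for Cd244 and the 4 genes with the nearest profile. The 4 genes were picked for lying close to Cd244, and so they share its drop at normal Se GD replicate 3. There Cd244 lies 1.88 below the mean of the other 2 arrays of its group.

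Sh2d1a, the SAP adaptor itself, was read by probe A_55_P1958146 at -0.22, 0.55 and 0.24 in low Se non-GD, 0.20, 0.23 and 0.18 in low Se GD, and 0.24, 0.31 and 0.31 in normal Se GD. Low Se non-GD spanned both other groups, with its replicate 1 the lowest and its replicate 2 the highest of all arrays. Nothing was called. The differences were 0.02 (95% interval -0.39 to 0.43) for disease at low selenium, 0.08 (-0.33 to 0.49) for selenium in disease and 0.10 (-0.31 to 0.51) for normal Se GD against low Se non-GD. T cell markers spread in the same way in low Se non-GD, with a mean level of 0.71 in replicate 1 and 1.47 in replicate 2.

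Beyond the receptors, 25 genes that act with them were listed: adaptors, kinases, phosphatases and partners. Of these 24 were tested, since Sh2d1b2 was not well above background on any array. In the disease comparison 4 rose and 2 fell, with a median difference of 0.15 beside 0.08 for all genes, of which 24.9% were called. In the selenium comparison 0 were called by limma (7 at an unadjusted p under 0.05), with a median of 0.16. In normal Se GD against low Se non-GD 6 rose and 1 fell, with a median of 0.24, where 32.3% of all genes were called. These shares are close to those of the list. With the slide as a block the last was 3 higher and 0 lower, where 18.3% of all genes were called. Without both in-between arrays the disease comparison had 0 calls and the last 2, beside 1.02% and 11.6% of all genes.

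Sh2d1b1, the EAT-2 adaptor used by Slamf7 and Cd244, stood at -3.11, -3.38 and -3.34 in low Se non-GD, -2.99, -2.74 and -2.66 in low Se GD, and -2.37, -2.42 and -2.50 in normal Se GD. The 3 groups stepped up without overlap. It rose by 0.48 with disease at low selenium (limma adjusted p = 0.0260) and by 0.85 in normal Se GD against low Se non-GD (adjusted p = 0.00230), and the selenium difference of 0.37 was not called (adjusted p = 0.163). With the slide as a block both calls were lost, at 0.29 (adjusted p = 0.152) and 0.59 (adjusted p = 0.0628), and without both in-between arrays the former was 0.42 (adjusted p = 0.280). Fyn, the kinase that SAP recruits, stood at -3.11, -2.62 and -2.83, then -2.42, -2.62 and -2.78, then -2.11, -2.12 and -2.20 in the same order of groups. Its normal Se GD arrays were the 3 highest, and it rose by 0.71 against low Se non-GD (adjusted p = 0.00925), or 0.72 without both in-between arrays (adjusted p = 0.0758).

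Among the other adaptors and enzymes, Shc1, which links receptors to Ras, rose by 0.85 with disease at low selenium (limma adjusted p = 0.00186) and by 0.71 in normal Se GD against low Se non-GD. Arhgef7, an exchange factor for Rac, rose by 0.63 and 0.58 in these comparisons. The phosphatases went separate ways in the disease comparison: Inpp5d (SHIP-1), which removes a phosphate from an inositol lipid, rose by 0.43 (adjusted p = 0.0278), and Ptpn6 (SHP-1), a tyrosine phosphatase, fell by 0.35 (adjusted p = 0.0474). Uvrag, a partner of the lipid kinase Pik3c3 in autophagy, fell by 0.50 (adjusted p = 0.0106) and, in normal Se GD, by 0.44 (adjusted p = 0.0134). Bcl10, which relays antigen receptor signals to NF-kB, rose by 0.72 and Inppl1 (SHIP-2) by 0.39 in normal Se GD against low Se non-GD. Without both in-between arrays the adjusted p of these disease calls lay between 0.0684 (Shc1) and 0.328 (Ptpn6), and those of normal Se GD were lost for all but Shc1, at 0.0617 (Bcl10) to 0.178 (Inppl1). A block for the slide ended the disease call of Ptpn6 (adjusted p = 0.0616) and the normal Se GD calls of Uvrag (0.0779), Arhgef7 (0.0646) and Inppl1 (0.137), and left Shc1 there just short of a call (0.05004). Lck, Cd2, Vav1 and Prkcq were called in no comparison, with differences between -0.36 and 0.31.

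**Figure D4:**
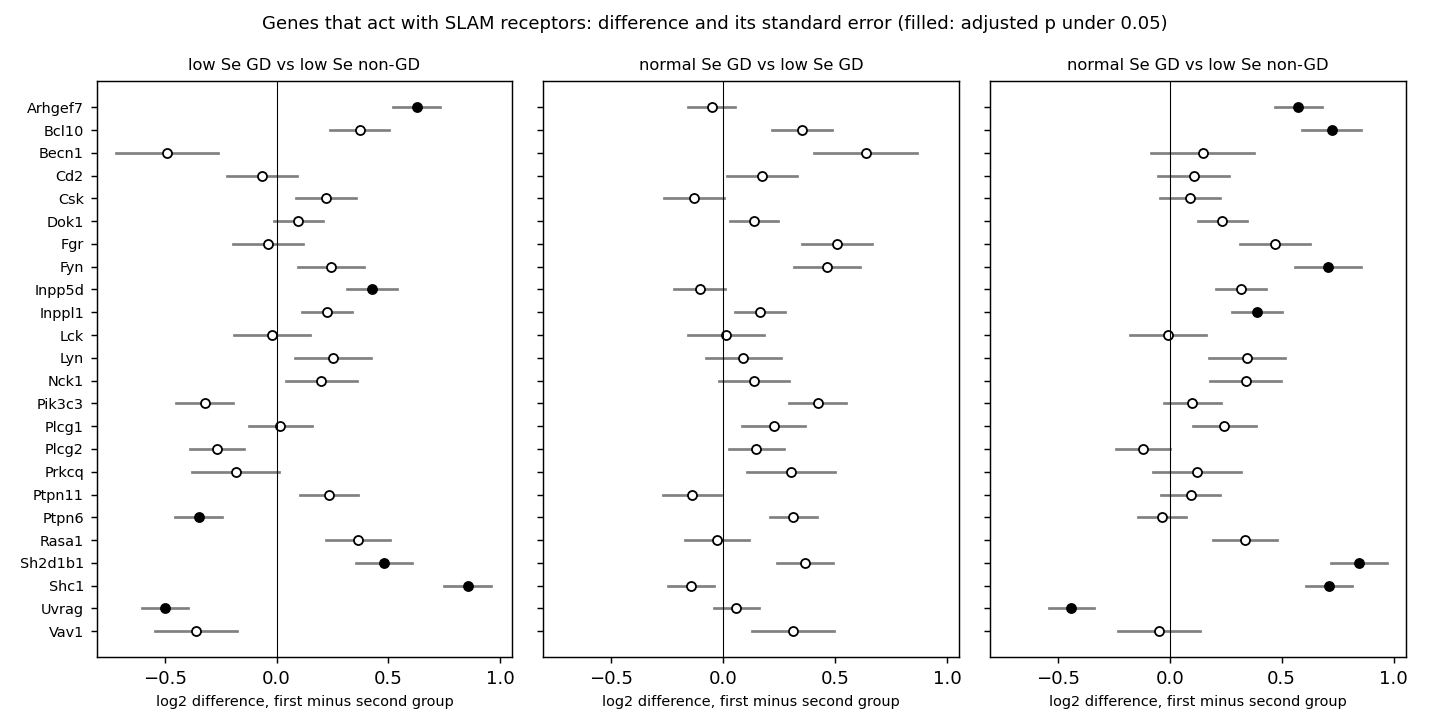
Difference in log2 level with its standard error (x axis) for the 24 tested genes that act with SLAM receptors (y axis) in the 3 comparisons; filled points have an adjusted p under 0.05. Filled points number 6 in the disease comparison, 0 in the selenium comparison and 7 for normal Se GD versus low Se non-GD.

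Markers of the cells that carry these receptors differed between the groups as well, and their part in the differences of the SLAM genes was not tested. All 12 natural killer markers were tested, and their mean level ran from -1.48 to -1.26 in low Se non-GD, from -0.77 to -0.74 in low Se GD, and from -0.58 to -0.52 in normal Se GD. In the order disease, selenium, and normal Se GD against low Se non-GD, 6, 0 and 9 of them rose and 0, 0 and 0 fell. The levels of Sh2d1b1 had the same order of groups as the mean of these markers. Those of Cd244 had the opposite order, as had the means of Prf1 of the list (0.20, 0.10 and -0.36). The 2 low selenium groups of Prf1 overlapped, and its normal Se GD arrays stood at -0.08, -0.03 and -0.96. No difference of Cd244 or Prf1 was called, and a link to cell content was not tested. Klrk1 (NKG2D), an activating receptor, rose by 1.36 in normal Se GD against low Se non-GD (limma adjusted p = 0.000749).

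Plasma cell markers (10 tested) ran from -0.01 to 0.09 in low Se non-GD, from 0.28 to 0.37 in low Se GD, and from 0.27 to 0.56 in normal Se GD, with 4, 0 and 6 risen and 0 fallen in each. Their mean level separated low Se GD from low Se non-GD, while Irf4, Mzb1 and Fkbp11 of the list were lower in low Se GD without a call. Their part in the Slamf7 differences was not tested. Dendritic cell markers (11 of 12 tested, Ccr9 left out as too dim) ran from 0.37 to 0.39, 0.68 to 0.71 and 0.96 to 1.02 in the same order of groups, with 5, 1 and 7 risen and 0 fallen. Itgax (CD11c) was the one that rose with selenium in disease, by 0.67 (limma adjusted p = 0.0427, and 0.512 without both in-between arrays). Siglech of the list stepped down by group means (8.03, 7.32 and 6.79) without a call, with replicate 3 of normal Se GD at 5.74. Of the 11 differences 3, 3 and 2 were negative in the 3 comparisons. Monocyte and macrophage markers (13 of 15 tested, with Cd68 and Ly6c2 not matched on the array) ran from 0.17 to 0.38, 0.28 to 0.48 and 0.64 to 0.67 in the same order of groups, with 5, 1 and 8 risen and 3, 0 and 1 fallen. The normal Se GD arrays were the highest for both of these lists. By group means normal Se GD was the highest for every member gene but Cd244 and Ly9. Among those genes its arrays overlapped low Se GD for Slamf8, Cd48 and Cd84. They overlapped low Se non-GD for Slamf6, Cd48, Cd84 and Sh2d1a.

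B cell markers (15 tested) ran from 2.36 to 2.56 in low Se non-GD, from 2.05 to 2.11 in low Se GD, and from 2.43 to 2.50 in normal Se GD, with 0, 3 and 2 risen and 5, 0 and 2 fallen. Low Se GD was the lowest group, as it was for Slamf6 by A_55_P2182467 and Cd84 by A_55_P2054445. By the other probe of each, A_52_P507578 and A_66_P122377, the 2 low selenium groups overlapped (differences -0.0013 and 0.03). Fcer2a, which encodes the B cell receptor for IgE, fell by 0.96 with disease (limma adjusted p = 0.00172) and was 0.94 higher on normal than on low selenium (adjusted p = 0.0369). Without both in-between arrays these were not called (adjusted p = 0.0662 and 0.512). T cell markers (15 of 16 tested, Trac not matched on the array) ran from 0.71 to 1.47, 1.05 to 1.32 and 1.14 to 1.20 in the same order of groups, with 1, 0 and 2 risen and 0 fallen.

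The lists for other cells were as follows. Neutrophil markers (9 tested) had 1, 0 and 3 risen and 1, 0 and 1 fallen, and stem cell and megakaryocyte markers (12 tested) 2, 0 and 2 risen and 2, 0 and 2 fallen. Erythroid markers (9 tested) had 0 calls by limma in every comparison (1, 4 and 0 at an unadjusted p under 0.05), with a mean level that ran from 1.12 to 2.97 within low Se non-GD alone. Adipocyte markers (9 tested, Lep dim on every array) ran from -3.86 to -1.48 in low Se non-GD, from -1.28 to 0.80 in low Se GD, and from -3.81 to -3.42 in normal Se GD, with 5, 0 and 1 risen and 1, 1 and 1 fallen. These counts stand beside 24.9%, 1.27% and 32.3% of all genes called in the 3 comparisons. With the slide as a block, normal Se GD against low Se non-GD had 5 natural killer markers risen and 1 fallen. It had 2 monocyte and macrophage markers risen and 0 fallen, 3 plasma cell and 6 dendritic cell markers risen, and 0 T cell markers called. Of all genes 18.3% were then called. Without both in-between arrays the disease comparison had 1 call over the 10 lists, a stem cell and megakaryocyte marker that fell, beside 1.02% of all genes.

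**Figure D5:**
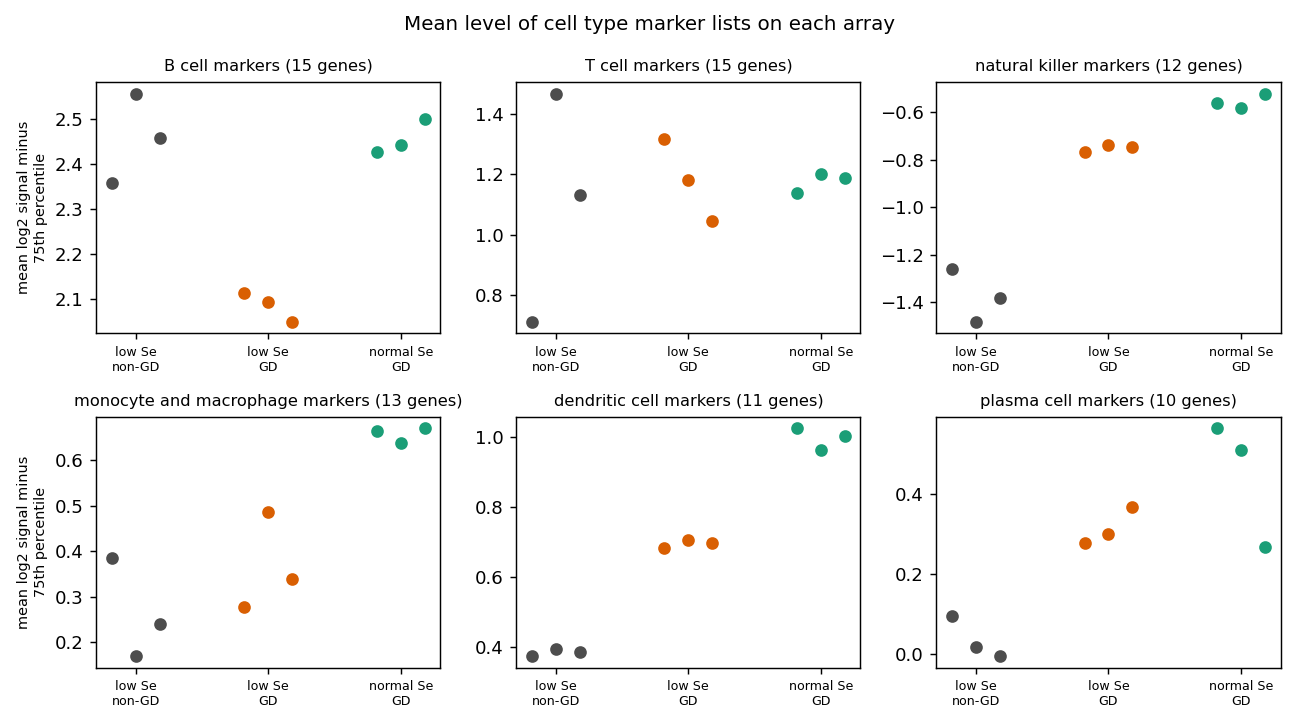
Mean level of 6 marker lists (y axis, log2 signal minus the 75th percentile, averaged over the tested genes of the list) on each of the 9 arrays, by group. Natural killer and dendritic cell markers step up over the 3 groups without overlap, and B cell markers are lowest in low Se GD (2.05 to 2.11).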

How the data were processed

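Total RNA of spleen had been hybridised to Agilent mouse arrays (design 026655) by a 1-colour protocol, per the labels. The deposited scanner files give each spot's processed intensity, background-subtracted and detrended by Feature Extraction 11.0.1.1 with no scaling between arrays, per the file headers. They also hold the other values used, 0 or 1 marks for outliers, saturation (0 spots) and signal well above background. The authors' deposited log2 table of 39485 probes, for which no method was found in the labels or headers, was an alternative only. Within low Se non-GD its 3 columns each tracked the scanner values of a differently numbered array best.

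Of 44397 spots, 1377 controls were left out. Log2 intensities were centred on each array's 75th percentile over 43020 spots, outlier spots dropped, spots of a probe averaged, and the probe with the highest mean taken for a gene. Accessions were matched to RefSeq's GRCm38.p6 table, which named 27234 of 39429 probes. The array itself was annotated on another build, so positions of its probes are not given. The printed coordinates are those of the promoters in GRCm38.p6. Of 32451 genes, 6078 were too dim (well above background on fewer than 3 arrays), 48 lacked a value and 26325 were tested, and 31868 probes were tested apart. Limma 3.58.1 in R 4.3.3 was used (lmFit and eBayes, 2-sided, 6 residual and 1.81 prior degrees of freedom), adjusted by Benjamini and Hochberg. The method was tested on simulated data. The arrays, 3 per group, limit the precision.

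The members and the gene lists, 1 of signalling partners and 10 of cell markers, were chosen with earlier results of these data known. Named are every member and probe, every called signalling gene and up to 4 others. Also named are the 4 nearest profiles to the member with the widest difference, and up to 3 called genes per marker list. Some uncalled genes of the marker lists are named too. Alternatives covered background correction (normexp on median spot and background intensities, since mean ones are not in the files used), scaling, filter, probe choice, slide, replicate block, the samples fitted and each array left out.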

Additional observations from a re-analysis of the deposited data

How the results depend on the processing

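Slamf7 against low Se non-GD was called under each of the 21 alternatives run, Slamf9 under 20 (not with the slide as a block) and Ly9 under 18 of 21. The Ly9 fall in low Se GD was called under 20 of 22. By the other Ly9 probe, A_51_P497171, neither was called in the main fit, with differences of 0.38 and -0.05. For the changes below the cause was not tested. The number of called SLAM genes in the selenium comparison (1) was 0 with normexp, quantile normalization, median scaling, the authors' deposited log2 table, no filter on dim probes, a replicate block, only the 2 groups compared or both in-between arrays left out, 3 with signal above background required on all 9 arrays or with the slide as a block, 2 within slide 2, and 0 to 2 without 1 array. Over all genes the calls (334) were then 0 with normexp, median scaling, no filter, the replicate block, only the 2 groups and both in-between arrays left out, 46 with quantile normalization, 3 with the authors' deposited log2 table, 1713 with the slide as a block and 0 to 1076 without 1 array. The called SLAM probes there (2) were 0 under the same settings and 4 with the stricter filter, the slide as a block and within slide 2 (0 to 3 without 1 array). In the disease comparison the called genes (1) were 2 with the slide as a block or only the 2 groups, 0 within slide 1 or with both in-between arrays left out, and 1 to 2 without 1 array. The called probes there (2) were 1 with median scaling, 0 within slide 1 and without both in-between arrays, and 2 to 3 without 1 array. For normal Se GD against low Se non-GD, the genes (4) and the probes (4) were 2 with the slide as a block and 2 without both in-between arrays, and 3 to 6 and 3 to 7 without 1 array.

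Signalling genes called in the disease comparison (6) were 0 within slide 1, 3 with the replicate block, 10 with only the 2 groups, 0 without both in-between arrays and 3 to 12 without 1 array. In the selenium comparison (0) there was 1 within slide 2. For normal Se GD against low Se non-GD (7) there were 3 with the slide as a block, 2 without both in-between arrays and 5 to 8 without 1 array. Over all genes, the disease comparison called 28.3% with the slide as a block, 19.6% with the replicate block and 34.5% with only the 2 groups. It called 1.02% without both in-between arrays and 13.1% to 41% without 1 array. The selenium comparison called 6.95% with the stricter filter and 10.6% within slide 2. Normal Se GD against low Se non-GD called 18.3% with the slide as a block, 11.6% without both in-between arrays and 20.6% to 43.8% without 1 array.

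Signs turned only for differences that were not called. In the disease comparison Slamf7 was -0.14 with normexp, -0.064 with the slide as a block and within slide 1, -0.032 without both in-between arrays, and -0.021 to 0.036 without 1 array. Cd48 was 0.016 with normexp, 0.063 with median scaling, and -0.15 to 0.073 without 1 array. Slamf8 was 0.042 with median scaling, 0.0059 with the authors' deposited log2 table and -0.22 to 0.15 without 1 array. Cd84 was -0.22 with the mean of its probes. With the slide as a block and within slide 1, Slamf1 was -0.085 and Slamf9 -0.095. Without 1 array Sh2d1a ran from -0.19 to 0.20 there and from -0.10 to 0.28 in normal Se GD against low Se non-GD, negative where replicate 1 of low Se non-GD was left out. In the latter comparison, with the slide as a block, Slamf8 was -0.25 and Cd48 -0.13.

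In the disease comparison the median of all genes moved from 0.08 to -0.16 with normexp and to 0.18 with median scaling, and 40.9% of calls with normexp were higher, against 51.2%. The median of the SLAM genes there was between -0.02 and 0.08 over the 4 other scalings. Deviations of samples with the same replicate number correlated between -0.21 and 0.10 over 9 pairs. Those with different numbers correlated between -0.25 and 0.24 over 18 pairs. With 3 arrays per group this cannot settle whether the numbers pair the samples. With the replicate block the Slamf7 rise in the selenium comparison had an adjusted p of 0.156 by limma and Slamf1 against low Se non-GD 0.0520. No array had a saturated spot, all members were above background on all 9 arrays, and normal Se GD replicate 3 was the dimmest array.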
